A study of Mus musculus with 10 samples.

Results

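Of the 24421 genes in the deposited tables, 41 were selected here by their function in cell division: cyclins and their kinases, the enzymes that switch those kinases on and off, Polo and Aurora kinases, and genes of the kinetochore, spindle checkpoint, spindle and cleavage furrow. They were matched by gene symbol, all 41 were found, and each was at 1 linear unit or more in every library, so none was left out by the filter on low values. The set was drawn up with earlier results of these data known. Among them was that Cenpe was low in 1 knockdown and in no other group. The p-values printed with that fall, and with the differences of Cenpe between that knockdown and other groups, are therefore no independent support. RNA was measured in mouse embryos at the 8-cell stage, with 2 libraries in each of 5 groups and 10 in all. All embryos were of the BDF1 hybrid genotype and had lost zona and polar bodies before lysis. The control group carried a control treatment whose kind is not given in the sources used here. One group had Klf5 knocked down (siKlf5), one had Tfap2c knocked down (siTfap2c), and 2 groups carried knockouts of Tfap2c motifs, labelled Arpc1bE_CdxE1_KO and CdxE2_KO. The number of embryos in a library, the share of alleles edited and the positions of the motifs are not given in the sources used here. The labels do not say whether the 2 libraries of a group came from separate batches of embryos. The p-values therefore rest on a spread that may be technical.

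Progress through the cell cycle is driven by cyclins, which rise and fall in each cycle, and by the cyclin-dependent kinases (Cdks) they activate. Wee1 holds a Cdk in check by phosphorylating it, Cdc25 phosphatases reverse this, and at mitotic entry Cdk1 with cyclin B, Polo and Aurora kinases set up the spindle. Kinetochores then tie chromosomes to microtubules, the spindle checkpoint delays anaphase until all are attached, and the anaphase-promoting complex releases the chromosomes and ends mitosis. The cleavage divisions of the early embryo reduce cell size without growth and use both transcripts stored in the egg and new ones made by the embryo. Klf5 and Tfap2c are transcription factors of the early embryo and the trophectoderm lineage, and Cdx2 is a trophectoderm factor.

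Klf5 and Tfap2c were low in the libraries labelled for their knockdown. The mean level of Klf5 was 4.27 log2 units in the Klf5 knockdown and 7.16 in control, a difference of -2.9 (adjusted p = 1.7e-06). Tfap2c stood at 4.01 in the Tfap2c knockdown and 6.61 in control, a difference of -2.6 (adjusted p = 2.4e-07), and Klf5 also fell there, by 1.78 (adjusted p = 4.7e-06). Cdx2 was lower in both motif knockouts, with differences of -1.26 (adjusted p = 0.018) and -1.54 (adjusted p = 0.0081) as deposited. Arpc1b, which the label of the first of these names, was at 3.27 and 3.3 log2 units in the Arpc1bE_CdxE1 knockout, 4.71 and 4.48 in control and 4.84 and 4.66 in the CdxE2 knockout. Its differences from control were -1.31 (SE 0.121, adjusted p = 0.002) and 0.16 (adjusted p = 0.35) as deposited. The linear values of a library summed to between 388454 and 395401 units in control and the knockdowns and between 478651 and 498621 in the motif knockouts, and the 41 genes held 0.616% to 0.651% and 0.651% to 0.696% of them. Marker genes of the 8-cell embryo were a list of 12 that includes Klf5, Tfap2c and Cdx2. They summed to 899.5 and 926.6 units in control, 707.7 and 752.5 in the Klf5 knockdown and 444.7 and 446.9 in the Tfap2c knockdown. Of the 11 tested, 10 were called lower in the Tfap2c knockdown, beside 11.9% of all genes. In the Klf5 knockdown 5 were, beside 5.27%. These counts and sums include the knocked-down genes themselves, and the part of the markers in the results below was not tested. The 10 oocyte-inherited transcripts tested had 0 calls in either knockdown, with sums of 55.56 to 67.58 units there and in control. In the motif knockouts 3 of 10 were called higher in each as deposited (30%). This lay near the 23.2% (Arpc1bE_CdxE1) and 28.5% (CdxE2) of all genes called higher there. Their sums of 80.34 to 112.6 units come from libraries whose totals over all genes were also higher. Markers of cumulus and granulosa cells summed to at most 2.218 units in any library, and 0 of the 8 spermatid markers reached 1 unit. In bulk samples such as these, fewer cells of a kind and less RNA per cell cannot be told apart.

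A gene was called when the adjusted p of limma (Benjamini-Hochberg over all genes tested) was under 0.05, and a log2 difference of 1 is a doubling on the scale of log2(value + 1). Fold differences are likewise ratios of value + 1. The knockdown libraries and the control stand in different deposited tables that may have been scaled apart. All 4 comparisons with control share the 2 control libraries, so their results are not independent of one another.

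Knockdown of Tfap2c changed 16 of the 41 cell division genes, 10 lower and 6 higher. The kinetochore motor gene Cenpe fell furthest (-1.97, SE 0.064, adjusted p = 2.1e-07), followed by Aurkc (-1.04), the centromeric histone gene Cenpa (-0.84) and the phosphatase gene Cdc25a (-0.72), while Spc25 (0.69) and Ccne1 (0.6) rose the most. The share called was 39% of these genes and 24.6% of all genes tested; higher calls made up 12.6% and lower calls 11.9% of all genes, and the median difference was -0.023 for the set and 0.038 for all genes. With libraries centred on their medians the set again had 6 higher and 10 lower calls, against 24% of all genes (11.6% higher, 12.4% lower). With the filter raised to 5 linear units, 16 of 40 genes of the set were called, beside 31.7% of all genes. The gap to the background was thus smaller among better expressed genes. The calls of Anln, Aurkc, Ccne1, Cdc25a, Cenpa, Cenpe, Ect2 and Spc25 held in all 13 alternative analyses, and the other 8 were each lost when at least 1 library was left out.

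Knockdown of Klf5 changed 4 of the 41. Skp2, the substrate receptor of a ubiquitin ligase that removes a Cdk inhibitor, fell by 1.24 (SE 0.082, adjusted p = 0.00017), Cenpa fell by 0.92 (SE 0.11, adjusted p = 0.0019), Ect2 fell by 0.3 (SE 0.076, adjusted p = 0.046), and Spc25 rose by 0.52 (SE 0.13, adjusted p = 0.041). The share called was 9.76% in the set and 7.52% over all genes (2.25% higher, 5.27% lower), so the set's share lay near the background. The median difference was -0.003 for the set and -0.019 for all genes. Centring turned 1 higher and 3 lower calls into 2 and 2 (7.32% of all genes, 3.39% higher and 3.94% lower): Ccne2 was then called (0.59, adjusted p = 0.044) and Ect2 no longer was (-0.24, adjusted p = 0.089). The Skp2 and Cenpa calls held in all 13 alternatives.

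As deposited, all 41 genes were above control in both motif knockouts, alongside a shift of all genes. With libraries centred, 25 and 29 of the 41 were above control in the Arpc1bE_CdxE1 and CdxE2 knockouts and the rest below. Their centred medians were 0.066 and 0.038. The share of all genes above control was not counted, so these counts of genes above control have no background beside them. In the Arpc1bE_CdxE1 knockout 23 of the 41 were called higher and 0 lower, beside 24% of all genes (23.2% higher, 0.815% lower). In the CdxE2 knockout 24 were called higher and 0 lower, beside 29.9% (28.5% higher, 1.44% lower). The median over all genes tested was 0.27 and 0.29 in the 2 knockouts, and that of the 41 was 0.39 and 0.37. After each library was centred on its median, 0 of the 41 were called in the Arpc1bE_CdxE1 knockout by limma (2.94% of all genes, 1.63% higher and 1.31% lower). In the CdxE2 knockout 3 were called higher and 0 lower (6.24% of all genes, 2.64% higher and 3.6% lower), namely Cdc25a (0.53, adjusted p = 0.018), Ndc80 (0.39, adjusted p = 0.042) and Spc25 (0.62, adjusted p = 0.043).

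**Figure D1:**
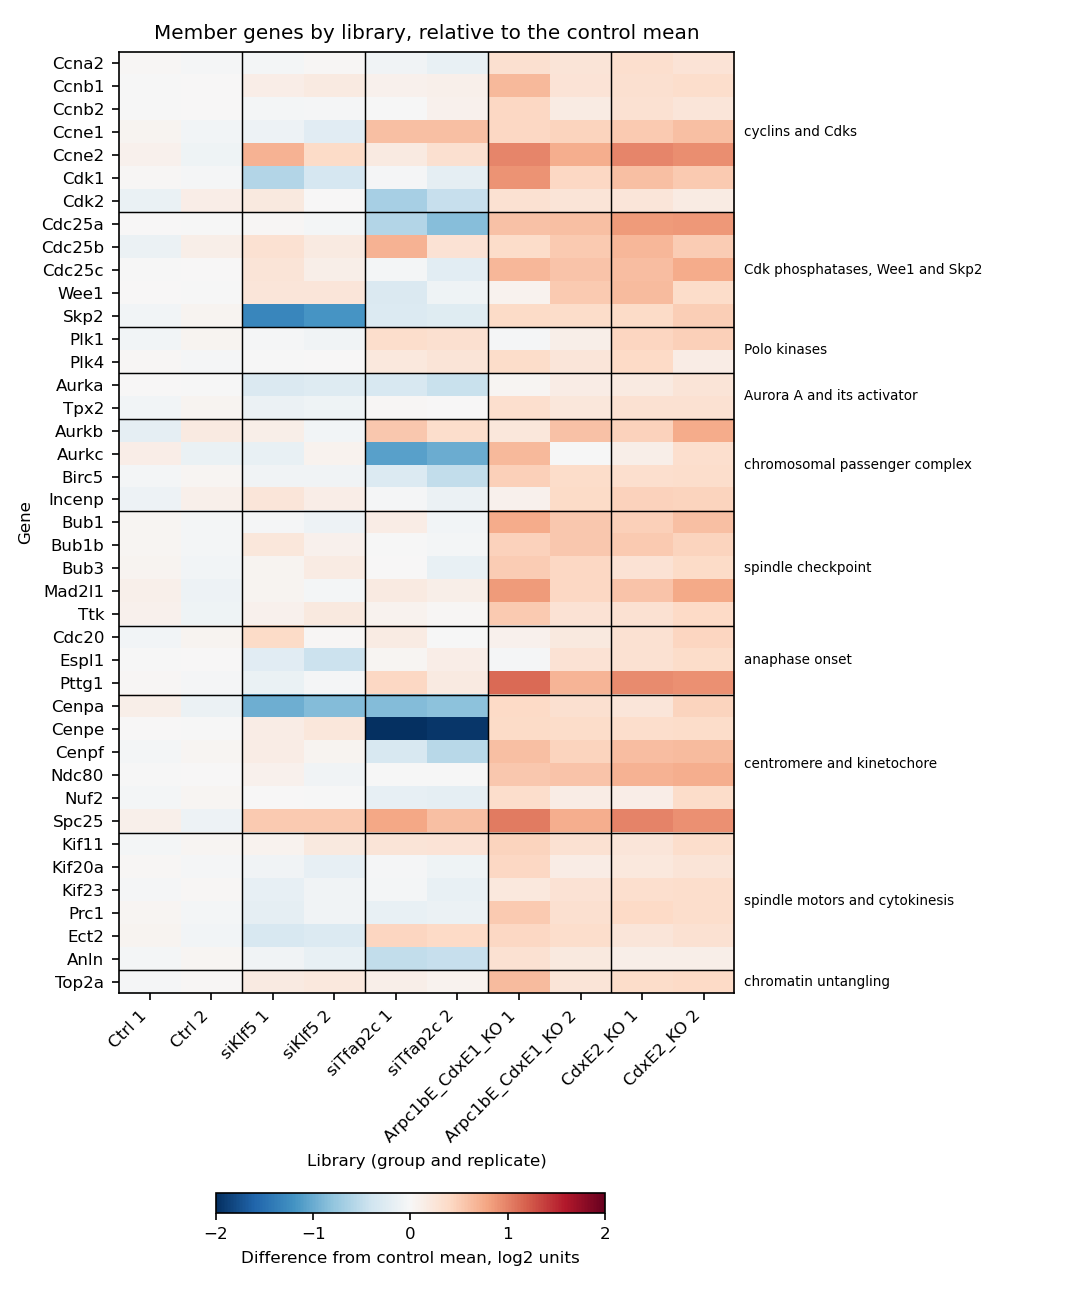
Heat map of the 41 cell division genes (rows, grouped by role) in the 10 libraries (columns), each cell showing the log2 difference from the mean of the 2 control libraries on a colour scale from -2 to 2. Cenpe is darkest in both Tfap2c knockdown libraries, Skp2 in both Klf5 knockdown libraries, Cenpa is low in all 4 knockdown libraries, and the 4 motif knockout libraries are higher almost throughout as deposited.

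Leaving out 1 library bore on the knockout counts. As deposited, the share of all genes called moved in the same direction as the count of the set in each such fit. Without control library 1 or 2 the Arpc1bE_CdxE1 count as deposited was 1 or 0, and without knockout library 1 or 2 it was 20 or 27. For the CdxE2 knockout it was 5 or 4 without control library 1 or 2 and 9 or 3 without knockout library 1 or 2. On the centred scale, the 3 CdxE2 calls were lost whichever of the 4 libraries was left out, and the Arpc1bE_CdxE1 count was 8 (5 higher, 3 lower) without knockout library 2 and 0 without any other. Differences of single members of the set in the motif knockouts are therefore given after centring, relative to the median gene.

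**Figure D2:**
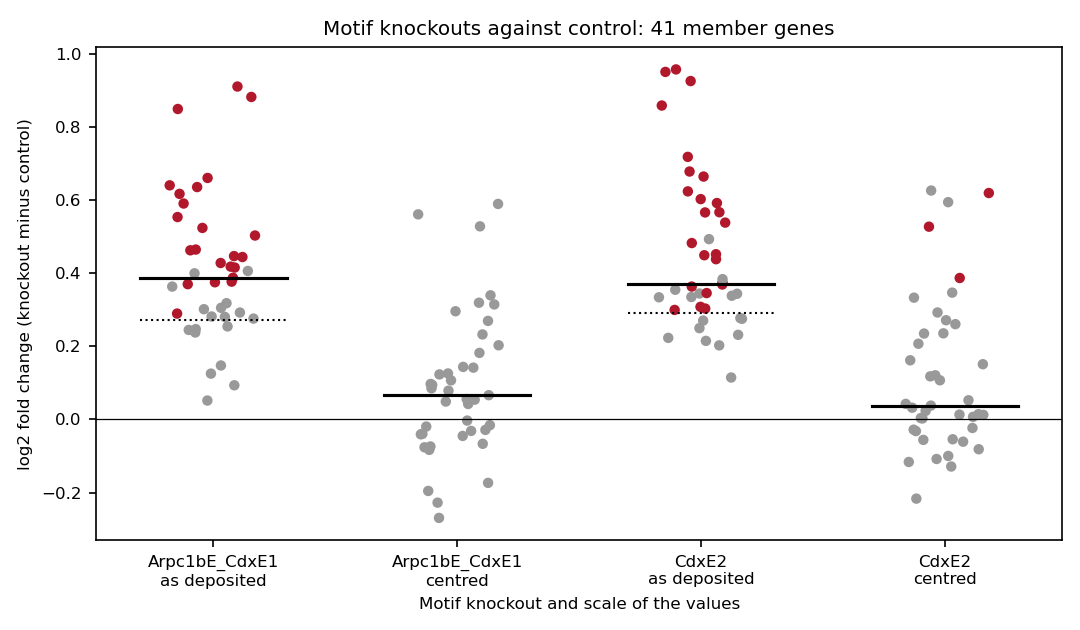
Log2 differences from control of the 41 cell division genes in each motif knockout, as deposited and after centring libraries on their medians (1 point per gene; red points were called higher, the solid bar is the median of the 41 and the dotted line that of all genes tested). The points lie above 0 as deposited, with 23 and 24 calls, and spread around 0 after centring, with 0 and 3 calls.

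Promoter sequence is shown for 5 of the genes whose levels moved furthest or in opposite directions, as read from the RefSeq table for GRCm38.p6. The motifs below were searched on both strands in the 250 bases upstream of each start: CCAAT (the box bound by NF-Y), TTTGAA (the CHR element of genes expressed late in the cycle), GCCNNNGGC (an AP-2 type motif, the family of Tfap2c) and GGGNGNGG (a Klf type motif). Of the 41 genes, 33 had a window in the table, with 37 windows in all. CCAAT was in 73% of these and 33.8% of all 32817 windows, TTTGAA in 32.4% and 16%, GCCNNNGGC in 29.7% and 13.7%, and GGGNGNGG in 56.8% and 45.9%. These shares describe letters in a window and do not show binding.

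The stretches lie at chr3:135212313-135212536 (Cenpe, plus strand), chr9:109875329-109875578 (Cdc25a, plus), chr15:9155426-9155675 (Skp2, minus), chr5:30666636-30666776 (Cenpa, plus) and chr3:27153879-27154128 (Ect2, minus). Each is written 5′ to 3′ along its gene, in lower case with matches to the 4 motifs in capitals, a match on the other strand appearing as its reverse complement. Bases inside a gene model, 26 for Cenpe and 109 for Cenpa, were left off.
Cenpe: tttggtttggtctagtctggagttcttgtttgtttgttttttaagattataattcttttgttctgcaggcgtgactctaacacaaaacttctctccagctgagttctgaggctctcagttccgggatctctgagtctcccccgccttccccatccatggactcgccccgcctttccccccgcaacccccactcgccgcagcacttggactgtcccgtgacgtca
Cdc25a: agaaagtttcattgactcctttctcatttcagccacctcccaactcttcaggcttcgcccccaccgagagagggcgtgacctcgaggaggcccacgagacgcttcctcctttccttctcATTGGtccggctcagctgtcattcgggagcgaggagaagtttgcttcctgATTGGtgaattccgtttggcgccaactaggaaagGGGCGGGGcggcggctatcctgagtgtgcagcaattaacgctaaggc
Skp2: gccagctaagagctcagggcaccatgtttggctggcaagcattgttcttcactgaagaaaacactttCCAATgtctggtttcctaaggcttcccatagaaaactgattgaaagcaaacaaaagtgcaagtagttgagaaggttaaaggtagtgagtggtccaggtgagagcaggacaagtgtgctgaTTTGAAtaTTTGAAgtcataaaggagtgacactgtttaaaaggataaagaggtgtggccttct
Cenpa: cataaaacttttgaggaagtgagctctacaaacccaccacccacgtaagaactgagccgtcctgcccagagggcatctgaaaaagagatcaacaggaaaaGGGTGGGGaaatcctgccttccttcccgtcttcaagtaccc
Ect2: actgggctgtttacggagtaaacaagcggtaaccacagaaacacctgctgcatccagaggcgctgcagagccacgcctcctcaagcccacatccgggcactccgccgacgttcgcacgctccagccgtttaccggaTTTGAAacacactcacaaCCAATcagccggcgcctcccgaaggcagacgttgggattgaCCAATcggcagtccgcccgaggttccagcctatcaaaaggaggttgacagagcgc
The Cenpe stretch holds 0 matches, and its 1 match, a CCAAT box 12 bases upstream of the start, lies in the part left off. Cdc25a has 2 CCAAT boxes on the minus strand, 131 and 81 bases upstream, and 1 Klf type match 47 bases upstream. Skp2 holds 2 TTTGAA matches at 63 and 55 bases and 1 CCAAT at 183 bases. Cenpa holds 1 Klf type match at 150 bases, and its pair of CCAAT boxes at 109 and 86 bases lies in the part left off. Ect2 holds 1 TTTGAA at 114 bases and 2 CCAAT at 96 and 55 bases. None of the 5 windows holds the AP-2 type motif, which 9 of the 33 genes with a window hold. Of these, Ccne1, Birc5, Cdk2, Cenpf and Kif11 were called in the Tfap2c knockdown, and Ccnb1, Bub3, Kif23 and Prc1 were not. Whether the motif bears on the changes was not tested.

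Among the cyclins and Cdks, Tfap2c knockdown raised Ccne1 and lowered Cdk2, 2 of 7 genes (28.6%), near the 24.6% of all genes called. Klf5 knockdown changed 0 of 7, beside 7.52% of all genes. Ccne1 encodes cyclin E1, which activates Cdk2 as cells enter S phase (chr7:38097984-38107534 in GRCm38). It was measured at 7.04 and 6.93 log2 units in control, 6.89 and 6.77 in the Klf5 knockdown, 7.59 and 7.58 in the Tfap2c knockdown, 7.4 and 7.43 in the Arpc1bE_CdxE1 knockout, and 7.51 and 7.59 in the CdxE2 knockout. Both Tfap2c knockdown libraries lay above control and both Klf5 knockdown libraries below it. The difference was 0.6 (SE 0.073, adjusted p = 0.00039), or 1.51-fold higher, with Tfap2c knocked down and -0.16 (adjusted p = 0.24) with Klf5 knocked down. Cdk2 itself stood at 5.31 and 5.56 in control, 5.63 and 5.44 in the Klf5 knockdown, 4.77 and 4.98 in the Tfap2c knockdown, 5.75 and 5.69 in the Arpc1bE_CdxE1 knockout, and 5.67 and 5.6 in the CdxE2 knockout. Its values in the Tfap2c knockdown were the lowest of any group, with a difference from control of -0.56 (SE 0.11, adjusted p = 0.0058), a call that was lost without Tfap2c knockdown library 1 (adjusted p = 0.056) or control library 2 (0.051). Ccne2, the second cyclin E, was at 1.86 and 1.7 in control, 2.47 and 2.15 in the Klf5 knockdown, 1.96 and 2.1 in the Tfap2c knockdown, 2.76 and 2.5 in the Arpc1bE_CdxE1 knockout, and 2.76 and 2.71 in the CdxE2 knockout. Its 2 Klf5 knockdown libraries lay above control and differed from it by 0.53 (adjusted p = 0.068), and all knockout libraries were higher still as deposited.

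Cdk1, the kinase that drives mitotic entry, was at 5.79 and 5.75 log2 units in control, 5.18 and 5.43 in the Klf5 knockdown, 5.73 and 5.59 in the Tfap2c knockdown, 6.67 and 6.19 in the Arpc1bE_CdxE1 knockout, and 6.37 and 6.29 in the CdxE2 knockout. Both Klf5 knockdown libraries were below control, by 0.46 (adjusted p = 0.094), without passing the threshold, and the Tfap2c knockdown libraries were near control (-0.1, adjusted p = 0.66). Ccnb1, the cyclin B1 partner of Cdk1, was at 8.14 and 8.14 in control, 8.28 and 8.32 in the Klf5 knockdown, 8.22 and 8.24 in the Tfap2c knockdown, 8.8 and 8.41 in the Arpc1bE_CdxE1 knockout, and 8.47 and 8.49 in the CdxE2 knockout. Ccna2, cyclin A2, which works in S phase and at mitotic entry, was at 7.46 and 7.42 in control, 7.41 and 7.46 in the Klf5 knockdown, 7.37 and 7.29 in the Tfap2c knockdown, 7.76 and 7.7 in the Arpc1bE_CdxE1 knockout, and 7.78 and 7.72 in the CdxE2 knockout. Neither was called in either knockdown, where the differences of Ccnb1 were 0.16 (Klf5) and 0.088 (Tfap2c) and those of Ccna2 -0.0067 and -0.11. Ccnb2, the second cyclin B, was called in no comparison, with differences of -0.033 and 0.034 in the knockdowns. As deposited, 5 of the 7 genes had higher calls in the Arpc1bE_CdxE1 knockout and 4 in the CdxE2 knockout, beside 23.2% and 28.5% of all genes. After centring, the differences in these knockouts ran from -0.039 (Cdk2) to 0.53 (Ccne2) and from -0.13 (Cdk2) to 0.63 (Ccne2). On that scale 0 of the 7 were called in either, beside 2.94% and 6.24% of all genes.

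Of the Cdc25 phosphatases, Wee1 and Skp2, 3 of 5 changed in the Tfap2c knockdown (60%, beside 24.6% of all genes). In the Klf5 knockdown 1 of 5 did (20%, beside 7.52%). Cdc25a, whose product removes the inhibitory phosphate from Cdks in S phase and at mitotic entry (chr9:109875579-109893895), was at 5.25 and 5.24 log2 units in control, 5.27 and 5.21 in the Klf5 knockdown, 4.66 and 4.4 in the Tfap2c knockdown, 5.83 and 5.84 in the Arpc1bE_CdxE1 knockout, and 6.1 and 6.11 in the CdxE2 knockout. Control and Klf5 knockdown libraries overlapped, both Tfap2c knockdown libraries were lower, and the 4 knockout libraries were higher as deposited. The difference with Tfap2c knocked down was -0.72 (SE 0.092, adjusted p = 0.00052), or 1.65-fold lower, and with Klf5 knocked down -0.0079 (adjusted p = 0.98). Centred differences in the knockouts were 0.27 (adjusted p = 0.12) for Arpc1bE_CdxE1 and 0.53 (adjusted p = 0.018) for CdxE2. Skp2 (chr15:9111985-9155425) was at 5.55 and 5.65 in control, 4.3 and 4.42 in the Klf5 knockdown, 5.32 and 5.36 in the Tfap2c knockdown, 5.98 and 5.97 in the Arpc1bE_CdxE1 knockout, and 5.98 and 6.1 in the CdxE2 knockout. The Klf5 knockdown libraries stood below every other library, and the Tfap2c knockdown libraries lay between them and control. Against control the difference was 2.37-fold lower with Klf5 knocked down, and -0.26 (SE 0.082, adjusted p = 0.042) with Tfap2c knocked down, the latter lost without Tfap2c knockdown library 1 (adjusted p = 0.18), Tfap2c knockdown library 2 (0.13), control library 1 (0.085) or control library 2 (0.22).

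Cdc25b, the phosphatase that starts Cdk1 activation at the centrosome, was at 3.43 and 3.67 log2 units in control, 3.85 and 3.72 in the Klf5 knockdown, 4.25 and 3.84 in the Tfap2c knockdown, 3.91 and 4.08 in the Arpc1bE_CdxE1 knockout, and 4.22 and 4.06 in the CdxE2 knockout. The Tfap2c knockdown libraries were above control but differed from each other, with a difference of 0.5 (SE 0.15, adjusted p = 0.038) that was lost without Tfap2c knockdown library 1 (adjusted p = 0.27), control library 1 (0.22) or control library 2 (0.054). Cdc25c, a further activator of Cdk1, was at 3.44 and 3.45 in control, 3.7 and 3.56 in the Klf5 knockdown, 3.4 and 3.23 in the Tfap2c knockdown, 4.1 and 4.02 in the Arpc1bE_CdxE1 knockout, and 4.06 and 4.19 in the CdxE2 knockout. Wee1 was at 4.52 and 4.5 in control, 4.75 and 4.76 in the Klf5 knockdown, 4.23 and 4.43 in the Tfap2c knockdown, 4.59 and 5.04 in the Arpc1bE_CdxE1 knockout, and 5.14 and 4.87 in the CdxE2 knockout. For both, the Klf5 knockdown libraries lay above control and the Tfap2c knockdown libraries below it, and neither passed the threshold in either (Cdc25c 0.19 and -0.13, Wee1 0.24 and -0.18). Higher calls in the Arpc1bE_CdxE1 and CdxE2 knockouts as deposited numbered 4 and 4 of 5, beside 23.2% and 28.5% of all genes. Relative to the median gene, the differences there ran from -0.019 (Wee1) to 0.3 (Cdc25c) and from 0.11 (Skp2) to 0.53 (Cdc25a). The last was the 1 centred call of the 5, beside 2.94% and 6.24% of all genes called in the 2 knockouts.

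Of the 2 Polo kinase genes, Aurora A and its activator Tpx2, Plk1 rose and Aurka fell in the Tfap2c knockdown, and 0 of the 4 changed in the Klf5 knockdown. Over all genes, 24.6% were called with Tfap2c and 7.52% with Klf5 knocked down. Plk1, the kinase of centrosome maturation, spindle assembly and cytokinesis, was at 5.94 and 6.04 log2 units in control, 5.96 and 5.92 in the Klf5 knockdown, 6.34 and 6.32 in the Tfap2c knockdown, 5.97 and 6.11 in the Arpc1bE_CdxE1 knockout, and 6.42 and 6.46 in the CdxE2 knockout. The Tfap2c knockdown libraries lay above control, by 0.34 (SE 0.076, adjusted p = 0.0099), a call that was lost without Tfap2c knockdown library 1 (adjusted p = 0.068) or control library 1 (0.083), while the Klf5 knockdown libraries overlapped with control (-0.05). Plk4, which starts centriole duplication, was called in no comparison; its differences were -0.003 (Klf5) and 0.24 (Tfap2c). Aurka, the spindle pole kinase, was at 7.1 and 7.08 in control, 6.81 and 6.83 in the Klf5 knockdown, 6.78 and 6.65 in the Tfap2c knockdown, 7.13 and 7.23 in the Arpc1bE_CdxE1 knockout, and 7.27 and 7.34 in the CdxE2 knockout. All 4 knockdown libraries were below control, and only the Tfap2c difference passed the threshold: -0.38 (SE 0.074, adjusted p = 0.005) against -0.27 (SE 0.074, adjusted p = 0.056) with Klf5 knocked down. The Aurka call was lost without Tfap2c knockdown library 2 (adjusted p = 0.051). The difference between the knockdowns was -0.11 (adjusted p = 0.32). Tpx2 was at 7.54 and 7.65 in control, 7.47 and 7.5 in the Klf5 knockdown, 7.62 and 7.6 in the Tfap2c knockdown, 7.92 and 7.82 in the Arpc1bE_CdxE1 knockout, and 7.89 and 7.89 in the CdxE2 knockout, and was not called in either knockdown (-0.11 and 0.02). As deposited, 0 of the 2 Polo kinase genes and 0 of the other 2 had higher calls in the Arpc1bE_CdxE1 knockout. In the CdxE2 knockout 1 of each pair had. Over all genes 23.2% and 28.5% were called higher there. After centring, 0 of these 4 genes were called in either knockout, beside 2.94% and 6.24% of all genes. Plk1 had centred differences of -0.27 and 0.12, Aurka -0.23 and -0.12, Tpx2 -0.045 and -0.032.

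In the chromosomal passenger complex, which corrects faulty attachments of chromosomes to the spindle, Aurkc and Birc5 fell in the Tfap2c knockdown and Aurkb was not called. That is 2 of 4 genes (50%), beside 24.6% of all genes, and 0 of 4 were called in the Klf5 knockdown, beside 7.52%. Aurkc, the Aurora kinase best known from germ cells and early embryos (chr7:6995300-7003091), was at 2.94 and 2.66 log2 units in control, 2.66 and 2.87 in the Klf5 knockdown, 1.71 and 1.81 in the Tfap2c knockdown, 3.44 and 2.8 in the Arpc1bE_CdxE1 knockout, and 2.92 and 3.13 in the CdxE2 knockout. Both Tfap2c knockdown libraries were below all others, with a difference of -1.04 (SE 0.21, adjusted p = 0.0055), or 2.05-fold lower as a ratio of value + 1, while the Klf5 knockdown libraries overlapped with control (-0.036, adjusted p = 0.95). Mean linear values of Aurkc were 6.003 in control and 2.396 in the Tfap2c knockdown, low levels at which the added constant of 1 understates changes. Aurkb, the kinase subunit of most dividing cells, was at 5.04 and 5.39 in control, 5.33 and 5.16 in the Klf5 knockdown, 5.76 and 5.56 in the Tfap2c knockdown, 5.43 and 5.8 in the Arpc1bE_CdxE1 knockout, and 5.67 and 5.96 in the CdxE2 knockout. Its Tfap2c knockdown libraries were above control, by 0.44 (SE 0.16, adjusted p = 0.074), which did not pass the threshold. Birc5, the survivin subunit, was at 2.68 and 2.74 in control, 2.64 and 2.65 in the Klf5 knockdown, 2.44 and 2.22 in the Tfap2c knockdown, 3.18 and 3.08 in the Arpc1bE_CdxE1 knockout, and 3.05 and 3.06 in the CdxE2 knockout. It fell with Tfap2c knocked down, by 0.38 (SE 0.12, adjusted p = 0.039), a call lost without Tfap2c knockdown library 1 (adjusted p = 0.051), Tfap2c knockdown library 2 (0.24), control library 1 (0.11) or control library 2 (0.16). Incenp, the scaffold of the complex, was at 5.59 and 5.79 in control, 5.93 and 5.83 in the Klf5 knockdown, 5.66 and 5.57 in the Tfap2c knockdown, 5.78 and 6.07 in the Arpc1bE_CdxE1 knockout, and 6.14 and 6.13 in the CdxE2 knockout, with differences of 0.19 and -0.074 in the Klf5 and Tfap2c knockdowns, neither called. The Arpc1bE_CdxE1 and CdxE2 knockouts had 1 and 2 higher calls among the 4 genes as deposited, beside 23.2% and 28.5% of all genes. Centred differences ran from -0.083 (Incenp) to 0.1 (Birc5) in the first and from -0.11 (Aurkc) to 0.27 (Aurkb) in the second. On that scale 0 of 4 were called in either, beside 2.94% and 6.24% of all genes.

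None of the 5 spindle checkpoint genes was called by limma in either knockdown, where 0 of 5 also had an unadjusted p under 0.05. Of all genes, 7.52% were called with Klf5 and 24.6% with Tfap2c knocked down. Bub1, a kinetochore kinase of the checkpoint, was at 4.23 and 4.16 log2 units in control, 4.17 and 4.1 in the Klf5 knockdown, 4.34 and 4.15 in the Tfap2c knockdown, 4.93 and 4.74 in the Arpc1bE_CdxE1 knockout, and 4.67 and 4.81 in the CdxE2 knockout. Bub1b, the BubR1 inhibitor of the anaphase-promoting complex, was at 5.51 and 5.43 in control, 5.7 and 5.56 in the Klf5 knockdown, 5.46 and 5.43 in the Tfap2c knockdown, 5.94 and 6.01 in the Arpc1bE_CdxE1 knockout, and 5.99 and 5.91 in the CdxE2 knockout. In both genes the Tfap2c knockdown libraries overlapped with control. Bub3, the partner of both, was at 3.73 and 3.62 in control, 3.73 and 3.83 in the Klf5 knockdown, 3.68 and 3.52 in the Tfap2c knockdown, 4.18 and 4.09 in the Arpc1bE_CdxE1 knockout, and 3.96 and 4.05 in the CdxE2 knockout. Mad2l1, the Mad2 protein gene, was at 4.82 and 4.6 in control, 4.77 and 4.68 in the Klf5 knockdown, 4.89 and 4.83 in the Tfap2c knockdown, 5.57 and 5.12 in the Arpc1bE_CdxE1 knockout, and 5.28 and 5.47 in the CdxE2 knockout. Ttk, the Mps1 kinase that starts the signal, was at 3.75 and 3.59 in control, 3.76 and 3.86 in the Klf5 knockdown, 3.74 and 3.69 in the Tfap2c knockdown, 4.19 and 3.96 in the Arpc1bE_CdxE1 knockout, and 3.98 and 4.07 in the CdxE2 knockout. Control and Tfap2c knockdown libraries overlapped for Bub3 and Ttk, and the Tfap2c knockdown libraries of Mad2l1 lay just above control. Over the 5 genes the differences ran from -0.06 to 0.16 with Klf5 knocked down and from -0.073 to 0.15 with Tfap2c knocked down. The widest 95% interval over all 41 genes spanned 0.46 to each side in the knockdown comparisons, so smaller differences could not be seen in some genes. As deposited, 4 of the 5 genes had higher calls in the Arpc1bE_CdxE1 knockout and 3 in the CdxE2 knockout, beside 23.2% and 28.5% of all genes. After centring, the differences in these knockouts ran from 0.085 (Ttk) to 0.32 (Bub1) and from 0.0029 (Bub3) to 0.33 (Mad2l1). On that scale 0 of 5 were called in either, beside 2.94% and 6.24% of all genes.

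The 3 genes of anaphase onset had 0 calls in the knockdowns against control, beside 7.52% (Klf5) and 24.6% (Tfap2c) of all genes. Cdc20, the activator of the anaphase-promoting complex that the checkpoint holds back, was at 7.03 and 7.14 log2 units in control, 7.47 and 7.11 in the Klf5 knockdown, 7.25 and 7.08 in the Tfap2c knockdown, 7.18 and 7.29 in the Arpc1bE_CdxE1 knockout, and 7.39 and 7.52 in the CdxE2 knockout. Pttg1, the securin that restrains separase, was at 3.93 and 3.9 in control, 3.78 and 3.88 in the Klf5 knockdown, 4.33 and 4.09 in the Tfap2c knockdown, 5.05 and 4.6 in the Arpc1bE_CdxE1 knockout, and 4.85 and 4.82 in the CdxE2 knockout. Espl1, separase, which cuts cohesin, was at 5.71 and 5.75 in control, 5.51 and 5.3 in the Klf5 knockdown, 5.76 and 5.87 in the Tfap2c knockdown, 5.7 and 6.01 in the Arpc1bE_CdxE1 knockout, and 6.04 and 6.09 in the CdxE2 knockout. For Cdc20 the knockdown libraries overlapped with control, and for Espl1 the Klf5 knockdown libraries lay below it (-0.32, adjusted p = 0.12). Pttg1 was above control in both Tfap2c knockdown libraries, by 0.3 (adjusted p = 0.17). Higher calls in the Arpc1bE_CdxE1 and CdxE2 knockouts as deposited numbered 1 and 2 of 3, beside 23.2% and 28.5% of all genes. Relative to the median gene, the differences there ran from -0.2 (Espl1) to 0.59 (Pttg1) and from 0.0037 (Espl1) to 0.59 (Pttg1). On that scale 0 of 3 were called in either, beside 2.94% and 6.24% of all genes. Top2a, the topoisomerase that untangles sister chromatids, was at 6.92 and 6.96 in control, 7.13 and 7.15 in the Klf5 knockdown, 7.05 and 7.02 in the Tfap2c knockdown, 7.57 and 7.19 in the Arpc1bE_CdxE1 knockout, and 7.31 and 7.33 in the CdxE2 knockout, and was not called in either knockdown (0.2 and 0.1).

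Of 6 centromere and kinetochore genes, 4 changed in the Tfap2c knockdown (66.7%, beside 24.6% of all genes). In the Klf5 knockdown 2 did (33.3%, beside 7.52%). The 4 include Cenpe, whose fall was known when the set was drawn up. Of 31 other kinetochore and centromere genes tested, 1 was called in the Tfap2c knockdown (3.23%) and 3 in the Klf5 knockdown (9.68%). Cenpe, a kinesin that carries chromosomes along microtubules to the spindle equator (chr3:135212537-135273611, plus strand), was at 7.45 and 7.43 log2 units in control, 7.59 and 7.68 in the Klf5 knockdown, 5.45 and 5.49 in the Tfap2c knockdown, 7.83 and 7.81 in the Arpc1bE_CdxE1 knockout, and 7.79 and 7.81 in the CdxE2 knockout. Both Tfap2c knockdown libraries were far below the other 8, which lay between 7.43 and 7.83. With Tfap2c knocked down the level was 3.92-fold lower, and with Klf5 knocked down the difference was 0.19 (adjusted p = 0.1). In the 4 fits that left out 1 library the adjusted p of the fall was at most 1.2e-05. Cenpe was also lower in the Tfap2c knockdown than in the Klf5 knockdown (-2.16, SE 0.064, adjusted p = 4.1e-07) and, after centring, than in the Arpc1bE_CdxE1 (-2.04, adjusted p = 9.5e-08) and CdxE2 (-2.01, adjusted p = 1.1e-07) knockouts, whose centred differences from control were 0.056 and 0.032. That Cenpe fell in this group only was known beforehand, so these p-values describe the difference and are no independent support for it.

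**Figure D3:**
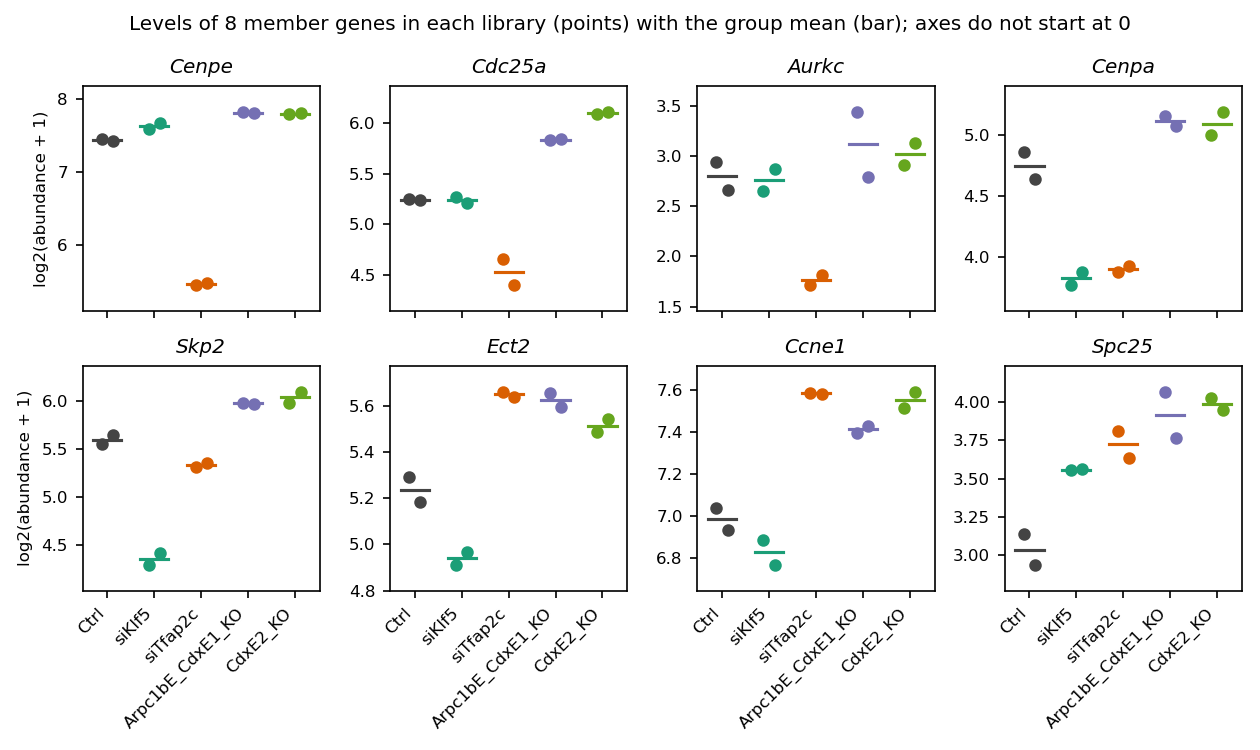
Levels of Cenpe, Cdc25a, Aurkc, Cenpa, Skp2, Ect2, Ccne1 and Spc25 in log2 units (vertical axes, which do not start at 0), with 1 point per library and a bar at the mean of each of the 5 groups. Cenpe, Cdc25a and Aurkc are lowest in the Tfap2c knockdown, Skp2 in the Klf5 knockdown and Cenpa in both, and Ect2 lies on opposite sides of control in the 2 knockdowns.

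Cenpa, the histone that marks the centromere (chr5:30666777-30674830, plus strand), was at 4.86 and 4.64 log2 units in control, 3.77 and 3.88 in the Klf5 knockdown, 3.88 and 3.93 in the Tfap2c knockdown, 5.15 and 5.07 in the Arpc1bE_CdxE1 knockout, and 5.0 and 5.19 in the CdxE2 knockout. All 4 knockdown libraries were lower than both control libraries, by 1.9-fold with Klf5 and 1.79-fold with Tfap2c knocked down (-0.84, SE 0.11, adjusted p = 0.00048), and the 2 knockdowns overlapped (0.079, adjusted p = 0.63). Spc25, a subunit of the Ndc80 complex that grips microtubules, was at 3.14 and 2.94 in control, 3.55 and 3.56 in the Klf5 knockdown, 3.81 and 3.64 in the Tfap2c knockdown, 4.07 and 3.77 in the Arpc1bE_CdxE1 knockout, and 4.03 and 3.95 in the CdxE2 knockout. As deposited, all 8 other libraries were above control. It rose in both knockdowns, and the Tfap2c difference was 0.69 (SE 0.13, adjusted p = 0.004); the Klf5 call was lost without Klf5 knockdown library 1 (adjusted p = 0.15), Klf5 knockdown library 2 (0.17), control library 1 (0.093) or control library 2 (0.22). Cenpf, a large protein of the outer kinetochore, was at 3.76 and 3.83 in control, 3.94 and 3.85 in the Klf5 knockdown, 3.47 and 3.24 in the Tfap2c knockdown, 4.39 and 4.25 in the Arpc1bE_CdxE1 knockout, and 4.41 and 4.43 in the CdxE2 knockout. It fell with Tfap2c knocked down, by 0.44 (SE 0.11, adjusted p = 0.015), a call lost without Tfap2c knockdown library 2 (adjusted p = 0.12), control library 1 (0.055) or control library 2 (0.089).

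The other 2 Ndc80 complex genes stayed uncalled in both knockdowns. Ndc80 was at 5.39 and 5.41 log2 units in control, 5.49 and 5.32 in the Klf5 knockdown, 5.39 and 5.39 in the Tfap2c knockdown, 5.94 and 5.97 in the Arpc1bE_CdxE1 knockout, and 6.1 and 6.14 in the CdxE2 knockout. Nuf2, whose lowest value was 1.203 linear units, was at 1.28 and 1.36 in control, 1.33 and 1.32 in the Klf5 knockdown, 1.15 and 1.14 in the Tfap2c knockdown, 1.67 and 1.47 in the Arpc1bE_CdxE1 knockout, and 1.45 and 1.68 in the CdxE2 knockout. Ndc80 differed from control by 0.0029 and -0.0094 and Nuf2 by 0.0027 and -0.17 in the Klf5 and Tfap2c knockdowns, and the added constant of 1 understates changes at levels as low as those of Nuf2. The Arpc1bE_CdxE1 and CdxE2 knockouts had 4 and 4 higher calls among the 6 genes as deposited, beside 23.2% and 28.5% of all genes. Centred differences ran from -0.067 (Nuf2) to 0.56 (Spc25) in the first and from -0.081 (Nuf2) to 0.62 (Spc25) in the second. The CdxE2 calls of Ndc80 and Spc25 were the only centred ones of this group, beside 2.94% and 6.24% of all genes.

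Among the spindle motors and cytokinesis genes, Ect2 moved in opposite directions in the 2 knockdowns. Its product activates RhoA at the cell equator to start furrowing (chr3:27097222-27153878, minus strand), and it was at 5.29 and 5.18 log2 units in control, 4.91 and 4.97 in the Klf5 knockdown, 5.66 and 5.64 in the Tfap2c knockdown, 5.65 and 5.6 in the Arpc1bE_CdxE1 knockout, and 5.49 and 5.54 in the CdxE2 knockout. The Klf5 knockdown libraries lay below control and the Tfap2c knockdown libraries above it, with differences of -0.3 (adjusted p = 0.046) and 0.41 (SE 0.076, adjusted p = 0.0038). The Tfap2c call held in every fit that left out a library, and the Klf5 call was lost without Klf5 knockdown library 1 (adjusted p = 0.2), Klf5 knockdown library 2 (0.14), control library 1 (0.24) or control library 2 (0.11). The difference between the 2 knockdowns was 0.71 (SE 0.076, adjusted p = 0.00021). Anln, anillin, which links actin, septins and RhoA in the furrow (chr9:22332012-22389188), was at 5.83 and 5.89 in control, 5.78 and 5.71 in the Klf5 knockdown, 5.37 and 5.4 in the Tfap2c knockdown, 6.16 and 6.05 in the Arpc1bE_CdxE1 knockout, and 5.98 and 5.97 in the CdxE2 knockout. It fell in the Tfap2c knockdown, whose libraries were below all others (-0.48, SE 0.074, adjusted p = 0.0015), and not detectably in the Klf5 knockdown (-0.11, adjusted p = 0.42).

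Kif11, the motor that pushes spindle poles apart, was at 6.28 and 6.36 log2 units in control, 6.39 and 6.51 in the Klf5 knockdown, 6.58 and 6.6 in the Tfap2c knockdown, 6.76 and 6.62 in the Arpc1bE_CdxE1 knockout, and 6.57 and 6.68 in the CdxE2 knockout. It rose slightly with Tfap2c knocked down (0.27, SE 0.081, adjusted p = 0.037), a call lost without Tfap2c knockdown library 1 (adjusted p = 0.13), Tfap2c knockdown library 2 (0.15), control library 1 (0.19) or control library 2 (0.086). Kif20a, which carries the passenger complex to the midzone, was at 6.02 and 5.99 in control, 5.94 and 5.84 in the Klf5 knockdown, 5.99 and 5.92 in the Tfap2c knockdown, 6.42 and 6.15 in the Arpc1bE_CdxE1 knockout, and 6.22 and 6.26 in the CdxE2 knockout. Kif23, a subunit of centralspindlin, was at 6.17 and 6.22 in control, 6.02 and 6.13 in the Klf5 knockdown, 6.15 and 6.05 in the Tfap2c knockdown, 6.4 and 6.48 in the Arpc1bE_CdxE1 knockout, and 6.53 and 6.55 in the CdxE2 knockout. Prc1, which bundles midzone microtubules, was at 7.57 and 7.5 in control, 7.35 and 7.46 in the Klf5 knockdown, 7.39 and 7.41 in the Tfap2c knockdown, 8.05 and 7.85 in the Arpc1bE_CdxE1 knockout, and 7.94 and 7.88 in the CdxE2 knockout. In these last 3 genes all 4 knockdown libraries lay below control, and none was called; the differences were -0.11 and -0.053 for Kif20a, -0.12 and -0.09 for Kif23, and -0.13 and -0.13 for Prc1, Klf5 knockdown first. As deposited, 3 of the 6 genes had higher calls in the Arpc1bE_CdxE1 knockout and 3 in the CdxE2 knockout, beside 23.2% and 28.5% of all genes. After centring, the differences in these knockouts ran from -0.076 (Anln) to 0.095 (Prc1) and from -0.22 (Anln) to 0.043 (Prc1). On that scale 0 of 6 were called in either, beside 2.94% and 6.24% of all genes.

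**Figure D4:**
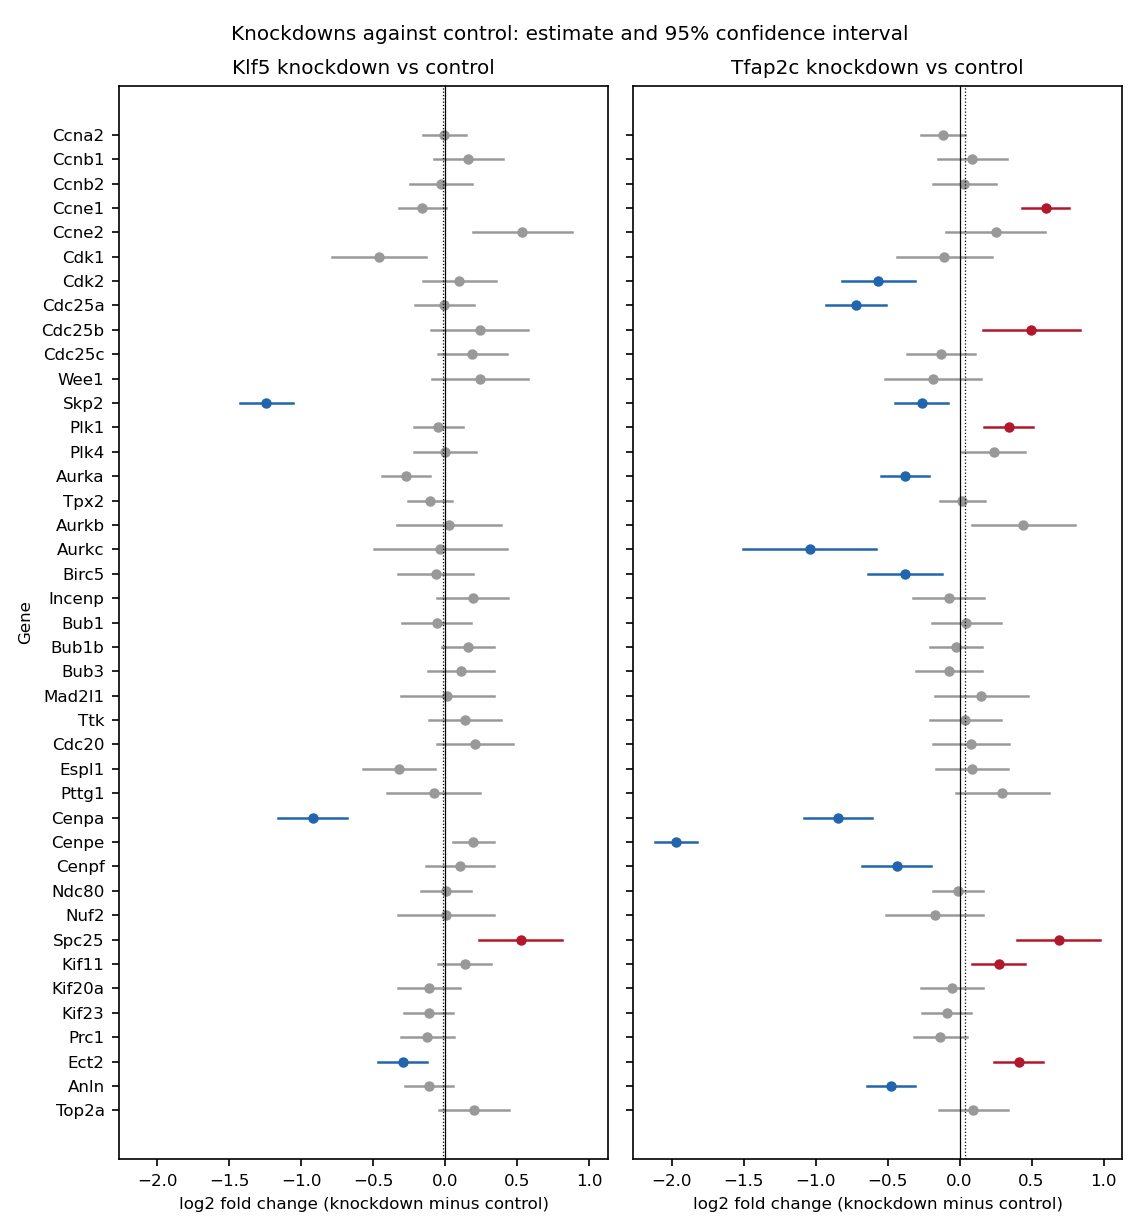
Log2 differences from control (horizontal axis) of the 41 cell division genes with Klf5 (left) or Tfap2c (right) knocked down, with 95% intervals; red points were called higher, blue lower and grey not called, and the dotted line is the median of all genes tested. Calls number 4 on the left and 16 on the right, and Cenpe on the right lies apart from every other gene.

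Compared directly, the 2 knockdowns differed in 11 of the 41 genes (26.8%), near the 25.6% of all genes (15.1% higher and 10.5% lower in the Tfap2c knockdown). Higher with Tfap2c than with Klf5 knocked down were Skp2 (0.98, adjusted p = 4.9e-05), Ccne1 (0.76, adjusted p = 0.00012), Ect2, Espl1 (0.41, adjusted p = 0.024) and Plk1 (0.39, adjusted p = 0.0049). Lower were Cenpe, Aurkc (-1.0, adjusted p = 0.0066), Cdc25a (-0.71, adjusted p = 0.00059), Cdk2 (-0.66, adjusted p = 0.0026), Cenpf (-0.54, adjusted p = 0.0055) and Anln (-0.37, adjusted p = 0.0061). The Espl1 call was lost without Tfap2c knockdown library 1 (adjusted p = 0.068), Tfap2c knockdown library 2 (0.14) or Klf5 knockdown library 2 (0.16), the Aurkc call without Klf5 knockdown library 2 (adjusted p = 0.051) and the Cenpf call without Tfap2c knockdown library 2 (adjusted p = 0.051). With centred libraries the split was 4 higher and 9 lower, beside 24.6% of all genes (11.4% and 13.1%). Skp2, Cenpa and Spc25 were called in the same direction in both knockdowns and Ect2 in opposite ones; 25 genes were called in neither.

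Set against the motif knockouts, the Tfap2c knockdown was lower in 30 and higher in 1 of the 41 for Arpc1bE_CdxE1 as deposited (42.4% of all genes called, 7.12% higher and 35.3% lower), and lower in 28 and higher in 0 for CdxE2 (42.5%, 6.1% and 36.4%). After centring, the counts were 3 higher and 13 lower (33.2%, 18.7% and 14.5%) and 3 higher and 12 lower (31.8%, 17.7% and 14.1%). Without Tfap2c knockdown library 1 or 2 the first count as deposited was 20 in each case. The 2 knockouts differed from each other in 0 of the 41 by limma (0.0458% of all genes), with 3 at an unadjusted p under 0.05 and differences from -0.13 to 0.4. The 95% intervals of these differences reached 0.17 to 0.53 to each side, so differences of that size could not be told from 0.

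Of 147 other genes of cell cycle control, grouped by function in 8 lists, 28 rose and 11 fell in the Tfap2c knockdown, 26.5% of them beside 24.6% of all genes tested, so the share called lay near the background. Cdkn1a, a broad inhibitor of Cdks, was at 3.41 and 3.13 log2 units in control, 3.59 and 3.33 in the Klf5 knockdown, 4.94 and 4.95 in the Tfap2c knockdown, 4.4 and 4.94 in the Arpc1bE_CdxE1 knockout, and 3.94 and 4.29 in the CdxE2 knockout. As deposited, control and Klf5 knockdown values of Cdkn1a were lower than those of the other 3 groups. With Tfap2c knocked down the difference was 1.68 (adjusted p = 0.00027), and it was the 1 called of 5 inhibitors tested. Of 20 genes of G1 and S phase control, 7 rose and 1 fell (40%); those with the lowest p were E2f5, a repressive E2F (0.76, adjusted p = 0.0014), E2f7, an atypical repressor of the family (0.83, adjusted p = 0.002), Ccnh, a subunit of the Cdk-activating kinase (0.65, adjusted p = 0.0048), and Tfdp1, a partner of E2F proteins (0.34, adjusted p = 0.015). The Tfdp1 call was lost without Tfap2c knockdown library 2 (adjusted p = 0.11), control library 1 (0.063) or control library 2 (0.082). In the B-Myb, FoxM1 and MuvB list, 3 of 8 rose and 1 fell (50%). These were Lin9, a MuvB core subunit (0.72, adjusted p = 0.00052), Lin52, another core subunit (1.06, adjusted p = 0.0017), Mybl1, A-Myb (0.66, adjusted p = 0.0081), and, lower, Mybl2, B-Myb (-0.65, adjusted p = 0.00099). The Mybl1 call was lost without Tfap2c knockdown library 1 (adjusted p = 0.054) or control library 1 (0.069).

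Among 18 genes of the anaphase-promoting complex and its partners, 5 rose and 3 fell with Tfap2c knocked down (44.4%, beside the 24.6% of all genes). Lowest in p were Anapc10, a substrate-binding subunit (-0.95, adjusted p = 0.00021), Fbxo5, the Emi1 inhibitor (-0.9, adjusted p = 0.00037), Ube2c, a ubiquitin-conjugating enzyme of the complex (0.37, adjusted p = 0.0027), and Ube2s, its chain-extending partner (0.43, adjusted p = 0.0044). Of 18 cohesin and condensin genes, 2 rose and 4 fell (33.3%), led by Ncapg2, a condensin II subunit, at 4.84 and 4.91 log2 units in control and 3.63 and 3.56 in the Tfap2c knockdown (-1.28, adjusted p = 2.4e-05). The next were Sgol1, shugoshin, which protects cohesin at centromeres (-0.44, adjusted p = 0.021), Nipbl, the cohesin loader (0.35, adjusted p = 0.024), and Smc3, a cohesin core subunit (0.22, adjusted p = 0.036). These last 3 calls did not hold when libraries were left out: Sgol1 without Tfap2c knockdown library 1 (adjusted p = 0.14), control library 1 (0.12) or control library 2 (0.059), Nipbl without Tfap2c knockdown library 1 (adjusted p = 0.15), Tfap2c knockdown library 2 (0.069), control library 1 (0.15) or control library 2 (0.057), and Smc3 without Tfap2c knockdown library 1 (adjusted p = 0.084), Tfap2c knockdown library 2 (0.2), control library 1 (0.15) or control library 2 (0.12).

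Of 31 other kinetochore and centromere genes tested, 1 rose and 0 fell with Tfap2c knocked down (3.23%, beside the 24.6% of all genes), the 1 being Casc5, the Knl1 scaffold of the outer kinetochore (0.79, adjusted p = 0.00011). Of 26 other spindle, centrosome and midbody genes, 4 rose and 2 fell (23.1%). Cit, the citron kinase of the midbody, went from 4.95 and 5.03 log2 units in control to 3.54 and 3.73 (-1.35, adjusted p = 1.1e-05), and was followed by Sass6, a centriole assembly factor (0.56, adjusted p = 0.001), Ckap5, a microtubule polymerase (0.3, adjusted p = 0.0076), and Kif2c, a microtubule depolymerase (0.48, adjusted p = 0.02). The Ckap5 call was lost without Tfap2c knockdown library 1 (adjusted p = 0.068) or control library 1 (0.052) and the Kif2c call without Tfap2c knockdown library 1 (adjusted p = 0.16), control library 1 (0.1) or control library 2 (0.069). Of 21 kinases and regulators of mitotic entry, exit and DNA checkpoints, 5 rose and 0 fell (23.8%), a share near the background. Plk2, a stress-responsive Polo kinase, rose from 2.65 and 2.74 in control to 3.88 and 3.87 (1.18, adjusted p = 9.5e-05), and the next were Atm, the kinase that senses DNA breaks (0.51, adjusted p = 0.00052), Plk3, another Polo kinase (1.02, adjusted p = 0.0023), and Melk, a kinase of proliferating cells (0.35, adjusted p = 0.012). The Melk call was lost without Tfap2c knockdown library 1 (adjusted p = 0.07), Tfap2c knockdown library 2 (0.061) or control library 2 (0.091).

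In the Klf5 knockdown 8 of the 147 genes of these lists were called, 5.44% of them beside 7.52% of all genes, with 4 higher and 4 lower. After centring 14 were called, 10 higher and 4 lower (9.52%, beside 7.32% of all genes). Without centring, the Cdk inhibitors, the anaphase-promoting complex and the mitotic kinase list had 0 of 5, 0 of 18 and 0 of 21 called. Calls elsewhere were Tfdp2, an E2F partner (-0.52, adjusted p = 0.032), Mybl2, B-Myb (-0.43, adjusted p = 0.025), Rad21, the cohesin subunit that separase cuts (0.35, adjusted p = 0.014), Smc2, a condensin core subunit (-0.41, adjusted p = 0.029), and Hmmr, a spindle pole protein (0.35, adjusted p = 0.036). A further 3 were kinetochore genes: Cenpq, of the inner kinetochore (0.74, adjusted p = 0.018), Cenpt, which links it to Ndc80 (-0.5, adjusted p = 0.02), and Dsn1, of the Mis12 complex (0.45, adjusted p = 0.022). Each of these 8 calls was lost without control library 1 and, in a separate fit, without control library 2, with adjusted p-values up to 0.22 over all alternatives.

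In the motif knockouts as deposited, 58 of the 147 pathway genes tested were called higher for Arpc1bE_CdxE1 and 72 for CdxE2, with 0 lower in either, alongside the shift of all genes. These were 39.5% and 49% of the lists, beside 23.2% and 28.5% of all genes called higher. The genes with the lowest limma p of each list are given with their log2 differences from control. For G1 and S phase control, the Arpc1bE_CdxE1 knockout gave E2f5 (0.66), Ccnh (0.64), Tfdp1 (0.41) and Mnat1 (0.44). The CdxE2 knockout gave E2f7 (0.98), E2f5 (0.82), Ccnh (0.77) and Mnat1 (0.61). Among Cdk inhibitors, the Arpc1bE_CdxE1 knockout gave Cdkn1a (1.4), Cdkn2a (1.01) and Cdkn2d (0.65). Those of CdxE2 were Cdkn2a (1.08), Cdkn2d (0.75), Cdkn1a (0.85) and Cdkn2c (0.79). For B-Myb, FoxM1 and MuvB, the Arpc1bE_CdxE1 knockout gave Mybl1 (0.68), Lin9 (0.37) and Rbbp4 (0.36). CdxE2 gave Mybl1 (1.08). For the anaphase-promoting complex, the Arpc1bE_CdxE1 knockout gave Fbxo5 (0.47), Anapc10 (0.48), Cdc23 (0.39) and Anapc15 (0.45). The CdxE2 knockout gave Fbxo5 (0.58), Anapc15 (0.6), Cdc23 (0.38) and Anapc1 (0.29). Among cohesin and condensin genes, the Arpc1bE_CdxE1 knockout gave Smc3 (0.54), Smc2 (0.56), Smc4 (0.48) and Wapal (0.44). Those of CdxE2 were Smc3 (0.65), Wapal (0.65), Smc4 (0.57) and Smc2 (0.55). Among kinetochore and centromere genes, the Arpc1bE_CdxE1 knockout gave Cenpq (0.83), Cenpw (1.05), Ska1 (0.86) and Cenph (0.89). CdxE2 gave Cenpq (0.9), Ska1 (0.93), Cenpw (1.1) and Cenph (0.87). Of the spindle and midbody genes, the Arpc1bE_CdxE1 knockout gave Haus6 (0.56), Ckap5 (0.48), Kif18a (0.56) and Kif20b (0.51). The CdxE2 knockout gave Ckap5 (0.79), Haus6 (0.77), Sass6 (0.64) and Kif20b (0.56). Within the mitotic kinase list, the Arpc1bE_CdxE1 knockout gave Arpp19 (1.06), Plk2 (1.28), Cks2 (1.03) and Gtse1 (0.88). Those of CdxE2 were Arpp19 (1.1), Plk2 (1.32), Cks2 (0.87) and Gtse1 (0.87). Of the 30 genes so named for Arpc1bE_CdxE1, 4 were still called after centring, with centred differences from 0.042 to 1.08. Of the 29 for CdxE2, 12 were, from -0.037 to 0.99. As deposited, 3 and 13 of them were called whichever of the 4 libraries was left out.

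Over all 147 genes, centring left 4 called higher and 1 lower for Arpc1bE_CdxE1, and 12 and 2 for CdxE2. The shares called, 3.4% and 9.52%, stand beside 2.94% and 6.24% of all genes. The 4 genes that follow were chosen after these values were seen. Plk2 was at 4.04 and 3.91 log2 units as deposited in the Arpc1bE_CdxE1 knockout and 4.0 and 4.02 in the CdxE2 knockout, all above control. Its centred differences were 0.96 (adjusted p = 0.0069) and 0.99 (adjusted p = 0.0059). Arpp19, an inhibitor of the phosphatase that opposes Cdk1, had centred differences of 0.74 (adjusted p = 0.0086) and 0.77 (adjusted p = 0.0064). Those of Cks2, a Cdk-binding protein, were 0.71 (adjusted p = 0.02) and 0.53 (adjusted p = 0.035). Cdkn1a was called for Arpc1bE_CdxE1, at 1.08 (adjusted p = 0.049), and not for CdxE2, at 0.52 (adjusted p = 0.19). The difference between the knockouts in Cdkn1a was -0.55 (adjusted p = 0.4) as deposited. The call of Plk2 was lost without control library 1 (adjusted p = 0.071) or control library 2 (0.057) in the first knockout. In the second it was lost without control library 1 (adjusted p = 0.064). That of Arpp19 was lost without control library 1 (adjusted p = 0.09) or control library 2 (0.096) in the first. In the second, knockout library 1 (adjusted p = 0.057), control library 1 (0.075) or control library 2 (0.07) each removed it. The Cks2 call was lost without knockout library 1 (adjusted p = 0.054), control library 1 (0.11) or control library 2 (0.18) in the first. In the second, knockout library 1 (adjusted p = 0.17), knockout library 2 (0.15), control library 1 (0.16) or control library 2 (0.2) each removed it. That of Cdkn1a was lost without knockout library 2 (adjusted p = 0.052), control library 1 (0.15) or control library 2 (0.28).

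By the GENCODE M21 annotation, 22 of the 41 gene models overlap another model and 17 overlap one on the opposite strand, of which 10 overlap a gene in the tables. Whether the authors' counting used strand is not stated in the sources used here, so reads of such pairs may not have been kept apart. Skp2 shares 14876 bases with Lmbrd2 on the other strand, and Lmbrd2 differed by -0.17 (adjusted p = 0.52) in the Klf5 knockdown, where Skp2 fell. Wee1 shares 21241 bases with an antisense gene, Prc1 21810 with Rccd1, Bub3 11674 with Fgfr2 and Ccne2 5622 with Ints8. Kif11 overlaps 2 processed pseudogenes not analysed here, and Cenpf (141 bases) and Espl1 (142 bases) also overlap such a pseudogene. The values of these genes are uncertain to that extent. Cenpe overlaps no other model, and its nearest neighbours downstream, Bdh2 and Slc9b2, were below the filter on low values.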

How the data were processed

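RNA was measured in 10 libraries of mouse 8-cell embryos with a stranded total RNA kit and random primers, per the labels' protocols. The values deposited by the authors are log2(value + 1) per gene for 24421 genes. Their kind of abundance is not given in the sources used here, and depth is unknown. An exact 0 can be a failed estimate, and the added constant of 1 understates changes of low genes. The submitters' processing notes name HISAT2 2.1.0, SAMtools 1.7, StringTie 1.3.4, Cufflinks and mm10.

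Groups follow the sample titles. A gene was tested if 2 or more libraries held it at 1 linear unit or above. Tests ran in R 4.3.3 with limma 3.58.1, whose eBayes step took a variance trend, and the code was tested on simulated data. A call needs an adjusted p (Benjamini-Hochberg) under 0.05. For any comparison with a knockdown, all 10 libraries entered 1 fit across tables (11195 genes). The motif knockouts were compared with control, and with each other, among the 6 libraries of their own table (10920 genes).

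The members and lists were chosen with earlier results of these data known. Values in every library are given for each member called in at least 1 comparison. From each pathway list, up to 4 called genes with the lowest p are named in each comparison with control. The 4 genes described on the centred scale in the motif knockouts were picked after their values were seen. Libraries that share a replicate number did not deviate together (Pearson r across genes from -0.0498 to 0.0441), so numbers were not taken as pairs. Alternatives varied the filter, the added constant, the scaling, the libraries fitted, a replicate block and the variance trend, and left out each library. Positions are from GENCODE M21 (GRCm38) and promoters from RefSeq (GRCm38.p6).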

Additional observations from a re-analysis of the deposited data

Results flagged for a closer look

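Ect2, the activator of RhoA in cytokinesis, was called lower with Klf5 knocked down and higher with Tfap2c knocked down. Tested directly by limma, the difference between the 2 knockdowns was 0.71 log2 units (adjusted p = 0.00021), with the 2 Tfap2c knockdown libraries above and the 2 Klf5 knockdown libraries below both control libraries. The Klf5 call (-0.3, adjusted p = 0.046) was lost in 10 of 13 alternative analyses, among them centring and each of the 4 fits without 1 library.

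Cdc25a, the Cdk phosphatase gene, was called lower in the Tfap2c knockdown and, after centring, higher in the CdxE2 motif knockout. Tested directly by limma on centred libraries, the difference between the Tfap2c knockdown and the CdxE2 knockout was -1.26 log2 units (adjusted p = 1.5e-05). The centred CdxE2 call was lost when any 1 of the 4 libraries of that comparison was left out. As deposited, the call against control (0.86) passed in each of those fits, with adjusted p-values of 0.023 to 0.03.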

How the results depend on the processing

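The calls of Skp2 and Cenpa in the Klf5 knockdown, and of Anln, Aurkc, Ccne1, Cdc25a, Cenpa, Cenpe, Ect2 and Spc25 in the Tfap2c knockdown, passed the threshold in the same direction under all 13 alternatives run for each. The shares of all genes called moved too, from 7.52% (Klf5), 24.6% (Tfap2c), 24% (Arpc1bE_CdxE1) and 29.9% (CdxE2). With no filter they were 2.34%, 10.9%, 5.61% and 8.95%, and without the variance trend 5.45%, 23.3%, 17.8% and 26.2%. An added constant of 5 gave 6.21% for Klf5, and scaling to one sum 2.87% and 6.47% for the knockouts. Without 1 library they fell in every comparison with control except Arpc1bE_CdxE1 without knockout library 2. The Klf5 count of 4 was 2 with no filter, 2 with an added constant of 5, 2 without the variance trend, and 2 without any 1 library. The Tfap2c count of 16 was 10 to 11 without 1 library. The Arpc1bE_CdxE1 count of 23 was 13 with no filter, 14 without the trend, 0 centred, 0 with libraries scaled to one sum, and 0 to 27 without 1 library; centred and without 1 library it was 0, 8, 0 and 0. The CdxE2 count of 24 was 15 with no filter, 15 without the trend, 3 centred, 5 scaled to one sum, 3 to 9 without 1 library, and 0 in each of the 4 centred fits without 1 library. Tfap2c knockdown against the Arpc1bE_CdxE1 knockout gave 31 members, 16 centred, 16 scaled to one sum and 20 to 30 without 1 library; against the CdxE2 knockout 28, 15 centred and 16 scaled to one sum. With centring, 16 of the 41 members in the Arpc1bE_CdxE1 knockout and 12 in the CdxE2 knockout lay below 0 in place of above it, none called. Of the genes called as deposited that the text names, those below 0 were Ccna2 in the Arpc1bE_CdxE1 knockout at -0.031 centred and -0.041 scaled to one sum, and, centred in the CdxE2 knockout, Ccna2 at -0.023, Kif11 at -0.028, Tpx2 at -0.032 and Anapc1 at -0.037. Anapc1 was at -0.0015 there with libraries scaled to one sum. Scaling to one sum, the centred fits without 1 library and all alternatives for genes of the pathway lists were chosen after seeing the data. The fewer libraries of a fit without 1 library lower its power by construction; other causes were not tested. With the replicate number as a block, as no more than a shared number, the counts were 3 (Klf5), 13 (Tfap2c), 22 and 23 (the knockouts), 11 (between knockdowns), 0 (between knockouts), and 29 and 26 (Tfap2c knockdown against the knockouts). In that order, 6.31%, 23.4%, 22.7%, 28.3%, 24.4%, 0.0366%, 40.9% and 41.4% of all genes were called. Read counts were not used here, so depth sets limits that cannot be given.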

Other observations

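For 5 members chosen after their values were seen (Cenpe, Cdc25a, Skp2, Aurkc and Cenpa), the 2 nearest protein-coding genes of the tables on each side were read from GENCODE M21. Of these 20 neighbours, 10 passed the filter on low values. With limma, 5 of the 10 were called in the Tfap2c knockdown and 0 in the Klf5 knockdown, where 24.6% and 7.52% of all genes tested were called. Tacr3, 277958 bases before Cenpe, differed from control by 0.96 with Tfap2c knocked down (adjusted p = 0.0092). Slc35f6, 7048 bases before Cenpa, differed by -1.24 (adjusted p = 0.0021). The other 3 called neighbours were Map4 (-0.44, adjusted p = 0.012) and Dhx30 (0.52, adjusted p = 0.0026), beside Cdc25a, and Usp29 (0.55, adjusted p = 0.0034), beside Aurkc.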
